A study of Mus musculus with 22 samples.

Results

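The tubulin genes described here are the 9 that a fixed list named and that the deposited count table of mouse hippocampal cells held, out of 13685 genes in all. They are 3 alpha tubulins (Tuba1a, Tuba1b and Tuba4a) and 6 beta tubulins (Tubb2a, Tubb2b, Tubb3, Tubb4a, Tubb4b and Tubb5). All 9 were found by symbol, and all 9 had counts in each of the 22 animals, as did 12614 genes of the table. Drop-seq, which captures single cells in droplets with barcoded beads, had been run on dissociated hippocampus. The study compared 4 old rTg4510 animals (aged 32 to 38 weeks) with 5 old wild-type (WT) littermates (32 to 40 weeks), and 3 young rTg4510 animals (4 to 5 weeks) with 4 young WT littermates (5 to 6 weeks). It also held 3 old P301L animals (41 to 48 weeks) and 3 old rTta animals (33 weeks), littermates whose names stand for 1 of the 2 transgenes, the tau responder in P301L and its transactivator in rTta. The WT animals carried neither transgene, and all animals had the mixed strain label Fvb/B6. In the rTg4510 line a Camk2a promoter drives the transactivator, which switches on mutant human tau, so that the transgene is active mainly in forebrain excitatory neurons. The design text gives a younger age range for the young animals than their labels do, and the labels were used.

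Alpha and beta tubulin form the dimers that polymerise into microtubules, the tracks of axonal and dendritic transport that tau binds. Mammals have several genes for each subunit, and their products, the isotypes, are nearly alike in the folded body and differ mostly in a short acidic tail at the carboxyl end. Glutamates of that tail receive chains of further glutamates or glycines from enzymes of the tubulin tyrosine ligase-like (TTLL) family, and alpha tubulins whose tail ends in tyrosine can lose and regain that residue. Tuba1a, Tubb2b and Tubb3 are known as genes of the developing brain, Tubb3 as a neuronal marker, Tubb4a as an isotype of myelinating oligodendrocytes, and Tubb4b as a main beta tubulin of cilia.

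The end of the coding sequence is shown for 7 of the 9 genes because it spells the tail, the stretch in which the isotypes differ most and which the modifying enzymes described below act on. Each line gives the last 20 codons and the stop codon from the GENCODE M21 transcripts (GRCm38, the same assembly as mm10), 5′ to 3′, with every glutamate codon (GAA or GAG) in capitals.
Tuba4a: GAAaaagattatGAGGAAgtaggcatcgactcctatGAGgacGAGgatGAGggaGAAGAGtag
Tubb2a: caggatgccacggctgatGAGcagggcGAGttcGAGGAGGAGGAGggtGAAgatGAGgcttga
Tubb2b: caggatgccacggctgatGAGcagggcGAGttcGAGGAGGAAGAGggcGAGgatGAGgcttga
Tubb3: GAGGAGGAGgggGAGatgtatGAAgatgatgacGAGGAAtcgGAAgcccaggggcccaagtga
Tubb4a: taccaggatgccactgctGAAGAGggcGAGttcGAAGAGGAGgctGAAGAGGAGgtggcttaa
Tubb4b: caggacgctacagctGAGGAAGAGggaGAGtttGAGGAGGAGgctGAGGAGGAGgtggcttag
Tubb5: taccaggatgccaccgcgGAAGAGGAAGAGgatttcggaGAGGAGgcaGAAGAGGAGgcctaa
These 7 ends held 8 to 10 glutamate codons each, with 10 in Tubb4b. Tuba4a ended in a glutamate codon and Tubb3 in a lysine codon (aag). The coding sequences of the 9 genes ran from 1332 to 1353 bases. Tuba1a and Tuba1b were 98.30% identical over their coding sequences and Tubb2a and Tubb2b 96.49%, whereas the other pairs within a family lay between 81.45% and 85.25%.

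The near-identical pairs also lie side by side in the genome. Tuba1a (chr15:98949837-98953703, minus strand, mm10) and Tuba1b (chr15:98931425-98934565, minus strand) are 15271 bases apart, and Tubb2a (chr13:34074274-34078007, minus strand) and Tubb2b (chr13:34126748-34130466, minus strand) are 48740 bases apart. Libraries of this kind read the 3′ end of a transcript. Over the last 300 transcript bases the longest run of identical bases was 96 for Tuba1a with Tuba1b and 8 for Tubb2a with Tubb2b, so the split of counts between Tuba1a and Tuba1b is uncertain to the extent that reads fell in that shared run. The other genes are Tuba4a (chr1:75214228-75219865, minus strand), Tubb3 (chr8:123411424-123422015, plus strand), Tubb4a (chr17:57080066-57087782, minus strand), Tubb4b (chr2:25222160-25224702, minus strand) and Tubb5 (chr17:35833921-35838306, minus strand). The annotation places other genes over Tuba1a and Tuba1b (Gm49450, and Gm41396 for Tuba1b), Tuba4a (Stk16), Tubb3 (Gm20388) and Tubb4b (Fam166a), and how the authors assigned overlapping reads is not given in the sources used here.

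Each animal had between 780831 and 6039656 counts in all. Of the 26845 cells used, 23505 fell in 18 classes named for the markers they carried. No doublet caller was run. The libraries of P301L replicate 3 and rTta replicate 3 shared 184 cell barcodes, against at most 2 for either with any other animal, and the profiles under a shared barcode were alike (median r 0.80, against 0.13 for other barcodes). Those cells held 25.4% of the counts of P301L replicate 3 and 13.5% of those of rTta replicate 3 and were left out. The table also consists of 2 parts, since 270 genes were absent from all P301L and rTta animals and 801 were present only there, so that a difference between these animals and WT animals cannot be told apart from a difference between the parts. The tau gene Mapt, whose counts can include the transgene, was read to check the genotypes. In CA pyramidal neurons it stood at 1388 to 2144 CPM (counts of a gene scaled to the class total of an animal) in old rTg4510 animals and 467 to 674 in old WT animals. It stood at 1574 to 1796 CPM in young rTg4510 animals and 540 to 650 in young WT animals.

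Among the classes that 5 or more animals held, tubulin messenger RNA was highest in a cluster with genes of newly formed oligodendrocytes and lowest in microglia. It stood high in mature oligodendrocytes and in excitatory neurons marked by Tshz2 and Slc17a6 or by Nxph3 and Hs3st4. Levels are counts summed per animal within a class, scaled to CPM and averaged over animals that had 20 or more cells in that class. As the 3′ ends were read, the counts were not divided by gene length. The 9 genes together reached 8850.4 ± 2292 CPM (SD, n = 6 animals) in that cluster, which carried Gpr17, Enpp6 and Bmp4, and 4289.7 ± 368 (n = 16) in excitatory neurons marked by Tshz2 and Slc17a6. They came to 4098 ± 687 (n = 18) in neurons marked by Nxph3 and Hs3st4, 3956 ± 897 (n = 22) in oligodendrocytes and 1299 ± 410 (n = 21) in microglia. The excitatory CA pyramidal neurons (3332 ± 590, n = 19) and dentate granule neurons (2619 ± 598, n = 21) stood lower, below interneurons (3479 ± 581, n = 19). Among classes with few animals, the sum was 11020 CPM in the 1 animal with enough immature neurons, 6536 in the 1 with enough ependymal cells, and 4355 and 6304 in the 2 with enough Cajal-Retzius cells. The tubulin genes were not among the genes used for clustering, so the classes were not built from them. Neighbours in the order of classes that 6 or more animals held were compared within animals by sign-flip permutation tests. Of 108 neighbouring pairs, 14 differed after Benjamini-Hochberg adjustment over the 108. A pair that only 6 animals held cannot go below p = 0.031 in this exact test and could not pass.

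Tuba1a, the main alpha tubulin messenger RNA in these cells, stood highest in the Gpr17 cluster, at 6624 ± 1761 CPM (SD, n = 6). All 6 animals with enough cells of that cluster were young, and each had more Tuba1a there than in its mature oligodendrocytes (exact permutation p = 0.031, Benjamini-Hochberg adjusted p = 0.14). Mature oligodendrocytes followed with 2185 ± 531 CPM (n = 22) and oligodendrocyte precursors with 1996 ± 344 (n = 20). The precursors stood above excitatory neurons marked by Nxph3 and Hs3st4 (1285 ± 246, n = 18) in 16 of 16 animals (adjusted p = 0.0022, sign-flip permutation test). Neurons came next, with 1253 ± 260 CPM in Tshz2/Slc17a6 neurons, 965 ± 249 in interneurons, 875 ± 196 in CA pyramidal neurons and 799 ± 242 in dentate granule neurons. Among these, Tshz2/Slc17a6 neurons stood above interneurons (15 of 16 animals, adjusted p = 0.0052, sign-flip permutation test), while the steps from interneurons to mural cells, CA pyramidal and dentate granule neurons lay within the spread. Astrocytes (624 ± 229) stood above microglia (377 ± 212) in 18 of 21 animals (adjusted p = 0.0043, sign-flip permutation test). Among classes with few cells, the 1 animal with enough immature neurons, a cluster led by the division genes Cenpf and Prc1 and by Sox11, had 6334 CPM, and the 1 with enough ependymal cells had 4810.2.

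Tuba1b varied much less between classes than Tuba1a, and none of its neighbouring classes differed past the adjustment in tests without choroid plexus cells. Among classes with 5 or more animals it ran from 474 ± 78.1 CPM (SD, n = 5) in choroid plexus cells and 344 ± 118 (n = 16) in Tshz2/Slc17a6 neurons to 132 ± 58.3 (n = 22) in oligodendrocytes and 108 ± 70.0 (n = 6) in the Gpr17 cluster. The Gpr17 cluster was also where Tuba1a was at its highest, but immature neurons, summed over all animals, had much of both (591 CPM of Tuba1b and 4684 of Tuba1a). Tuba4a, the alpha tubulin whose gene ends in a glutamate codon, was a gene of mature neurons. Its means were 518 ± 104 CPM in Tshz2/Slc17a6 neurons, 454 ± 129 in Nxph3/Hs3st4 neurons, 384 ± 86.7 in dentate granule neurons and 379 ± 114 in CA pyramidal neurons. These 4 did not differ past the adjustment from each neighbour to the next, and CA pyramidal neurons stood above interneurons (277 ± 62.2, adjusted p = 0.013) and interneurons above astrocytes (223 ± 65.5, adjusted p = 0.042, both sign-flip permutation tests). In oligodendrocytes Tuba4a was at 51.1 ± 30.4 CPM.

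Among the beta tubulins, Tubb2a was the most abundant in mature neurons. In immature neurons, summed over all animals, Tubb5 led with 50.1% of the beta counts, against 16.1% for Tubb2a. Tubb2a stood at 1000.5 ± 165 CPM (SD, n = 19) in interneurons, 988 ± 199 in Nxph3/Hs3st4 neurons, 932 ± 166 in Tshz2/Slc17a6 neurons and 925 ± 223 in CA pyramidal neurons, levels that overlapped from each class to the next. Dentate granule neurons had less, 689.9 ± 199.9 CPM (n = 21), below CA pyramidal neurons in 17 of 19 animals (adjusted p = 0.0043) and above astrocytes (497 ± 93.1) in 19 of 21 (adjusted p = 0.0036, sign-flip permutation tests). Oligodendrocytes had 99.2 ± 77.3 CPM. Tubb2b, whose coding sequence is nearly that of Tubb2a, had another pattern. It stood at 404 ± 142 CPM (n = 22) in astrocytes, 377 ± 115 (n = 6) in the Gpr17 cluster and 228 ± 63.9 (n = 20) in oligodendrocyte precursors, which lay above macrophages in 12 of 12 animals (adjusted p = 0.0070, sign-flip permutation test). In CA pyramidal neurons it was at 28.6 ± 19.1 CPM and in oligodendrocytes at 16.7 ± 11.7. The 1 animal with enough immature neurons had 604 CPM.

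Tubb3, the neuronal isotype, separated some neuron classes from each other. Tshz2/Slc17a6 neurons had 409 ± 75.1 CPM (SD, n = 16), above Nxph3/Hs3st4 neurons (282 ± 92.1) in 15 of 15 animals (adjusted p = 0.0036, sign-flip permutation test). Nxph3/Hs3st4 neurons were not told apart from interneurons (281 ± 66.3) and lay above them in 7 of 17 animals (unadjusted p = 0.98, sign-flip permutation test). Interneurons lay above CA pyramidal neurons (229 ± 64.7) in 14 of 18 animals (adjusted p = 0.041, sign-flip permutation test). Dentate granule neurons had only 74.7 ± 24.9 CPM, a level that macrophages (90.3 ± 86.5, n = 13) also reached, whereas astrocytes and microglia had 27.0 ± 25.3 and 26.2 ± 24.4. The share of free RNA in these low levels was not tested. In macrophages the 7 neuron markers summed to group means of 2007 (P301L) to 8059 CPM (young rTg4510). In microglia their group means ran from 441 (P301L) to 2696 CPM (old WT). The part of these markers in the Tubb3 level of macrophages was not tested.

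Tubb4a was the beta tubulin of oligodendrocytes, with 1209 ± 494 CPM (SD, n = 22) there and 629 ± 206 (n = 6) in the Gpr17 cluster. The next class, Nxph3/Hs3st4 neurons, had 135 ± 56.5 CPM, and the cluster lay above it in 6 of 6 animals (exact permutation p = 0.031, adjusted p = 0.14). Oligodendrocytes stood above the Gpr17 cluster in 5 of 6 animals (adjusted p = 0.21, exact permutation test), in the opposite order to Tuba1a. The oligodendrocyte mean is over animals of all groups and the cluster mean over young animals only. Within the 6 animals that held both, the mean difference was 260 ± 180 CPM (SD). Precursors had 74.6 ± 33.2 CPM. Tubb4b, the isotype of cilia, stood at 1099 CPM in the 1 animal with enough ependymal cells, which bear motile cilia, and at 771 ± 162 (n = 5) in choroid plexus cells. No other class with 2 or more animals went above 208 ± 64.0 CPM (Tshz2/Slc17a6 neurons), apart from the 2 animals with enough Cajal-Retzius cells, which had 347 and 609. Tubb5, a widely expressed isotype, was the most even of the beta tubulins over classes with many animals. Its means ran from 510 ± 160 CPM (n = 6) in the Gpr17 cluster and 490 ± 79.0 in Tshz2/Slc17a6 neurons through 278 ± 91.7 in microglia to 168 ± 73.4 in astrocytes and 139 ± 49.2 in oligodendrocytes, and the 1 animal with enough immature neurons had 1599.9.

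**Figure D1:**
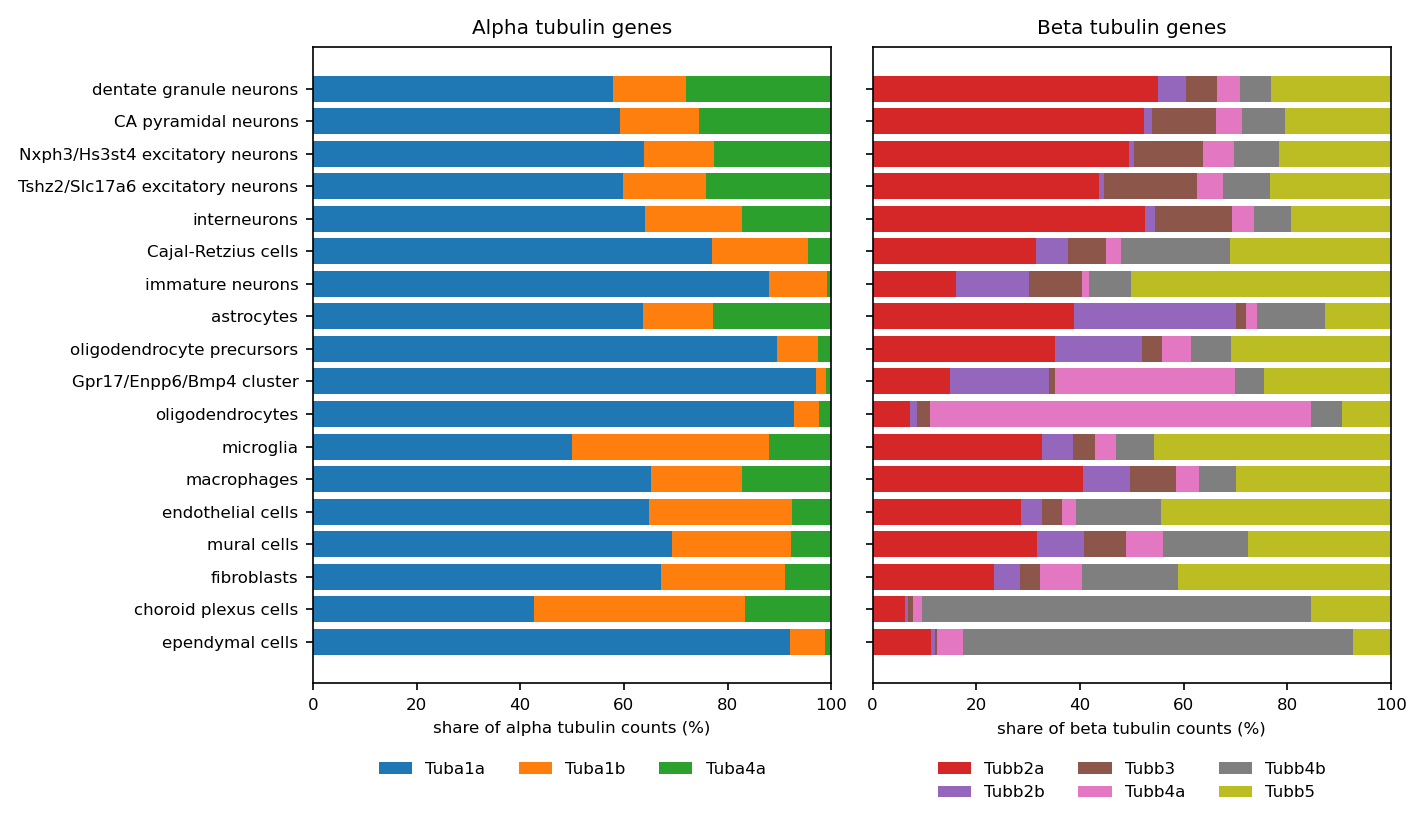
Share of each gene in the summed alpha (left) or beta (right) tubulin counts of a class, as the mean over animals in percent. Tuba1a made up 92.1% of the alpha counts in oligodendrocytes and 52.4% in microglia. The leading beta tubulin changed from Tubb4a in oligodendrocytes to Tubb2a in mature neurons, Tubb4b in choroid plexus cells and Tubb5 in microglia.

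Seen as shares of a family, the isotype mix ranged widely over the classes, while some neuron classes had much the same mix. Shares were not compared between classes by a test. Tuba1a gave 97.2% ± 0.89 (SD, n = 6) of the alpha tubulin counts in the Gpr17 cluster, 92.1% ± 2.70 (n = 22) in oligodendrocytes and 89.4% ± 4.00 (n = 20) in precursors. In dentate granule neurons it gave 57.7% ± 5.34 (n = 21), and Tuba4a supplied 28.2% ± 3.81 there. In microglia Tuba1a gave 52.4% ± 13.7 (n = 21) and Tuba1b 37.0% ± 14.5, and in choroid plexus cells 43.8% ± 5.23 and 39.5% ± 5.74 (n = 5). Among the beta tubulins, Tubb4a supplied 74.2% ± 12.7 in oligodendrocytes and 30.9% ± 6.60 in the Gpr17 cluster, but 6.04% ± 3.12 in precursors, where Tubb2a led with 34.8% ± 6.14. Tubb2a supplied 55.3% ± 5.55 in dentate granule neurons, 52.2% ± 4.33 in interneurons and 49.98% ± 5.14 in CA pyramidal neurons, against 7.13% ± 6.43 in oligodendrocytes. In astrocytes Tubb2a and Tubb2b gave 38.8% ± 6.12 and 31.4% ± 9.56. Tubb5 led in microglia (45.8% ± 9.15) and endothelial cells (44.0% ± 7.79), and Tubb4b in choroid plexus cells (73.1% ± 6.20).

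Whether these mixes differed between groups could not be settled with so few animals. Exact two-sided permutation tests of the shares over animals gave 0 of 693 tests past Benjamini-Hochberg adjustment (lowest adjusted p = 0.91) and 22 with an unadjusted p under 0.05. The smallest p that any of these group sizes allows is 0.0079, so a share could pass only if at least 110 tests did, and the count of 0 does not show that the mixes were alike. The Tuba4a share in dentate granule neurons, for example, was 32.9% ± 1.3 (SD, n = 4) in old rTg4510 animals and 25.1% ± 2.8 (n = 5) in old WT animals (exact permutation p = 0.016, unadjusted).

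The genes whose levels over the 18 classes were most like those of a tubulin gene were found by Pearson correlation of log2(CPM + 20) over 6294 genes, a description over class means that share libraries and depth. Tubb3 was most like Ube2o (r = 0.951), the neuronal adhesion molecule L1cam (0.943) and the stathmin Stmn2 (0.937). Tuba4a was most like the calcium pump Atp2b2 (0.952), the hexokinase Hk1 (0.938) and Mtfp1 (0.900), and Tubb2a like 2900011O08Rik (0.957), Rtn1 (0.947) and Sept3 (0.936). Tubb4a was most like Map6d1 (0.939), Tmeff2 (0.893) and Ypel2 (0.889), and Tubb4b like Chchd2 (0.920), Swi5 (0.912) and Rsph9 (0.893), a component of ciliary radial spokes. The nearest genes lay lower for Tuba1a (Ilf2, 0.855, Rpa3, 0.853, and Zfp637, 0.851), Tuba1b (Sumo3, 0.866, Isca1, 0.815, and Trappc6b, 0.805), Tubb2b (Btbd17, 0.854, Ccdc28b, 0.842, and Luzp2, 0.803) and Tubb5 (Top1, 0.882, Wbp4, 0.874, and Polr3gl, 0.862). Within the family the highest correlation was that of Tubb3 with Tubb2a (0.863), and Tuba1b with Tubb4a had the lowest (-0.573). Classes with few cells, above all immature neurons, weigh on these values.

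Old rTg4510 and old WT animals did not differ in any tubulin gene past the test. edgeR's quasi-likelihood test with Benjamini-Hochberg adjustment over all genes of a class called 0 of 89 pairs of gene and class (lowest adjusted p = 0.22), against 0.634% of all genes tested in the same 12 classes. An unadjusted p under 0.05 was seen for 3 pairs, and DESeq2 also called 0. The median log2 change over the 89 pairs was -0.05, against -0.0066 over all genes, and for 63 pairs the 95% interval excluded a change of 2-fold in either direction. In CA pyramidal neurons, where tau counts were high, Tuba1a stood at 769 ± 277 CPM (SD, n = 4) in old rTg4510 animals and 801 ± 149 (n = 5) in old WT animals, and Tubb2a at 914 ± 345 and 869 ± 109. In oligodendrocytes Tuba1a stood at 1796 ± 240 and 2548 ± 710 CPM, a difference of -0.47 ± 0.20 on the log2 scale (SE, edgeR adjusted p = 0.62), and Tubb4a at 806 ± 283 and 1128 ± 296 (-0.44 ± 0.25, adjusted p = 0.87). In astrocytes Tubb2b stood at 273 ± 24.8 and 402 ± 127 CPM (-0.50 ± 0.24, edgeR adjusted p = 0.58).

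Young rTg4510 animals had more Tuba1a in dentate granule neurons than young WT animals, the only tubulin pair called between them. Tuba1a stood at 1309.6, 1537 and 911 CPM in the 3 young rTg4510 animals, against 735, 559, 728 and 717 CPM in the 4 young WT animals. Every young rTg4510 value lay above every young WT value. The log2 change was 0.86 ± 0.21 (SE, 95% interval 0.44 to 1.29, edgeR adjusted p = 0.041). It was 1 call among 90 pairs tested, against 0.118% of all genes over the same 12 classes (0.0772% higher) and 0.554% of genes in dentate granule neurons (0.324% higher). The other 8 genes also had positive log2 changes in this class, with a median of 0.61 over the 9, but none passed the test. Tuba4a stood at 514 ± 84.5 and 312 ± 36.2 CPM (0.68 ± 0.22, adjusted p = 0.18), Tubb2a at 925 ± 197 and 633 ± 104 (0.54 ± 0.23, edgeR adjusted p = 0.45) and Tubb3 at 96.0 ± 21.4 and 56.9 ± 16.1 (0.75 ± 0.33, edgeR adjusted p = 0.45). Tuba1b (141 ± 50.8 and 142 ± 32.4) and Tubb4b (69.7 ± 2.34 and 67.6 ± 29.6) lay closest to no change.

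The call for Tuba1a was not stable. It was lost in 8 of 14 alternatives, with log2 changes of 0.69 to 1.03 and adjusted p of 0.0064 to 0.38, and among these were the fits without young rTg4510 replicate 1 or 2 and without any 1 of the 4 young WT animals. The animal numbers fall in ranges that hold both genotypes of an age, and within each range the young rTg4510 animals lay above the young WT animals (replicate 1 above WT replicates 1 and 2, replicates 2 and 3 above WT replicates 3 and 4). By their labels these rTg4510 animals were also younger, at 4 against 5 weeks in 1 range and 5 against 6 weeks in the other. Genotype and age in weeks therefore cannot be told apart within a range. With the range as a term the change was 0.87 (edgeR adjusted p = 0.012). Markers of oligodendrocytes, in which Tuba1a is high, moved with it. The 8 markers summed to 3679.6 CPM (1704 to 4778) in the dentate granule neurons of young rTg4510 animals and 1684 CPM (582.0 to 3027) in those of young WT animals. None was at 0 in either group, 7 of 7 tested had positive log2 changes (median 0.64) with 0 called, and their part in the result was not tested. In old animals, the same markers summed to 1241 CPM (821 to 2341) in rTg4510 and 3079 CPM (1212 to 5336) in WT.

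**Figure D2:**
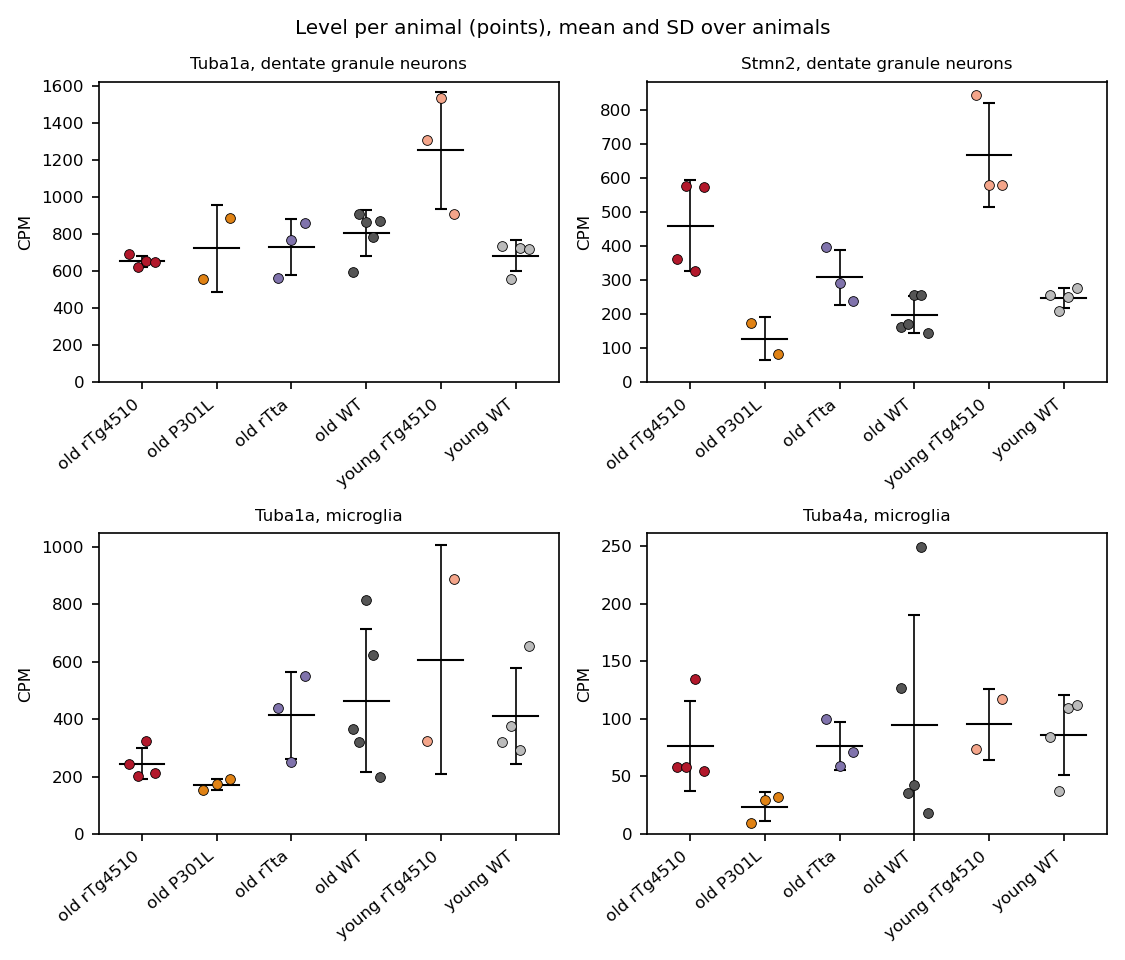
CPM per animal (points) for 4 gene and class pairs that passed the test in a comparison, with the group mean and SD (bars, cut at 0 in the plot). Tuba1a in dentate granule neurons was at 911 to 1537 CPM in young rTg4510 animals, above all 4 young WT animals, and Stmn2 there lay higher in rTg4510 than in WT animals at both ages without overlap.

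In old animals Tuba1a in this class was not called. The dentate granule neurons of the 4 old rTg4510 animals had 695, 623, 653 and 648 CPM, against 597, 909.9, 867, 784 and 872 CPM in the 5 old WT animals. Old WT replicate 1 lay below all old rTg4510 animals, and the other 4 lay above them. The log2 change was -0.28 ± 0.19 (SE, edgeR adjusted p = 0.65). The genotype effect in old animals minus that in young animals was -1.14 ± 0.29 (95% interval -1.72 to -0.57, unadjusted p = 0.00023), and with an edgeR adjusted p of 0.57 over all genes of the class it did not pass. P301L animals had 558 and 889.8 CPM in this class and rTta animals 562, 767 and 859.

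Outside dentate granule neurons, no pair tested in the young comparison passed the test. Over all 90 pairs the median log2 change was 0.23, against -0.0016 over all genes, 68 changes were positive, and 14 had an unadjusted p under 0.05. DESeq2 called 1 pair. In oligodendrocytes Tubb3 stood at 52.0 ± 17.6 CPM in young rTg4510 animals and 16.5 ± 4.80 in young WT animals (1.52 ± 0.43), Tubb2a at 155 ± 83.8 and 58.5 ± 34.7 (1.17 ± 0.47) and Tuba4a at 78.2 ± 24.3 and 32.4 ± 8.23 (1.13 ± 0.35), each with an edgeR adjusted p of 0.81. These 3 are the isotypes that neurons carry, and the 7 neuron markers summed to 1800.0 CPM (974 to 3058) in the oligodendrocytes of young rTg4510 animals and 941 (532 to 1375) in those of young WT animals, none at 0. Their part in these values was not tested. Tubb4a, the isotype of oligodendrocytes, stood at 949 ± 328 and 953 ± 247 CPM there (-0.01 ± 0.27).

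**Figure D3:**
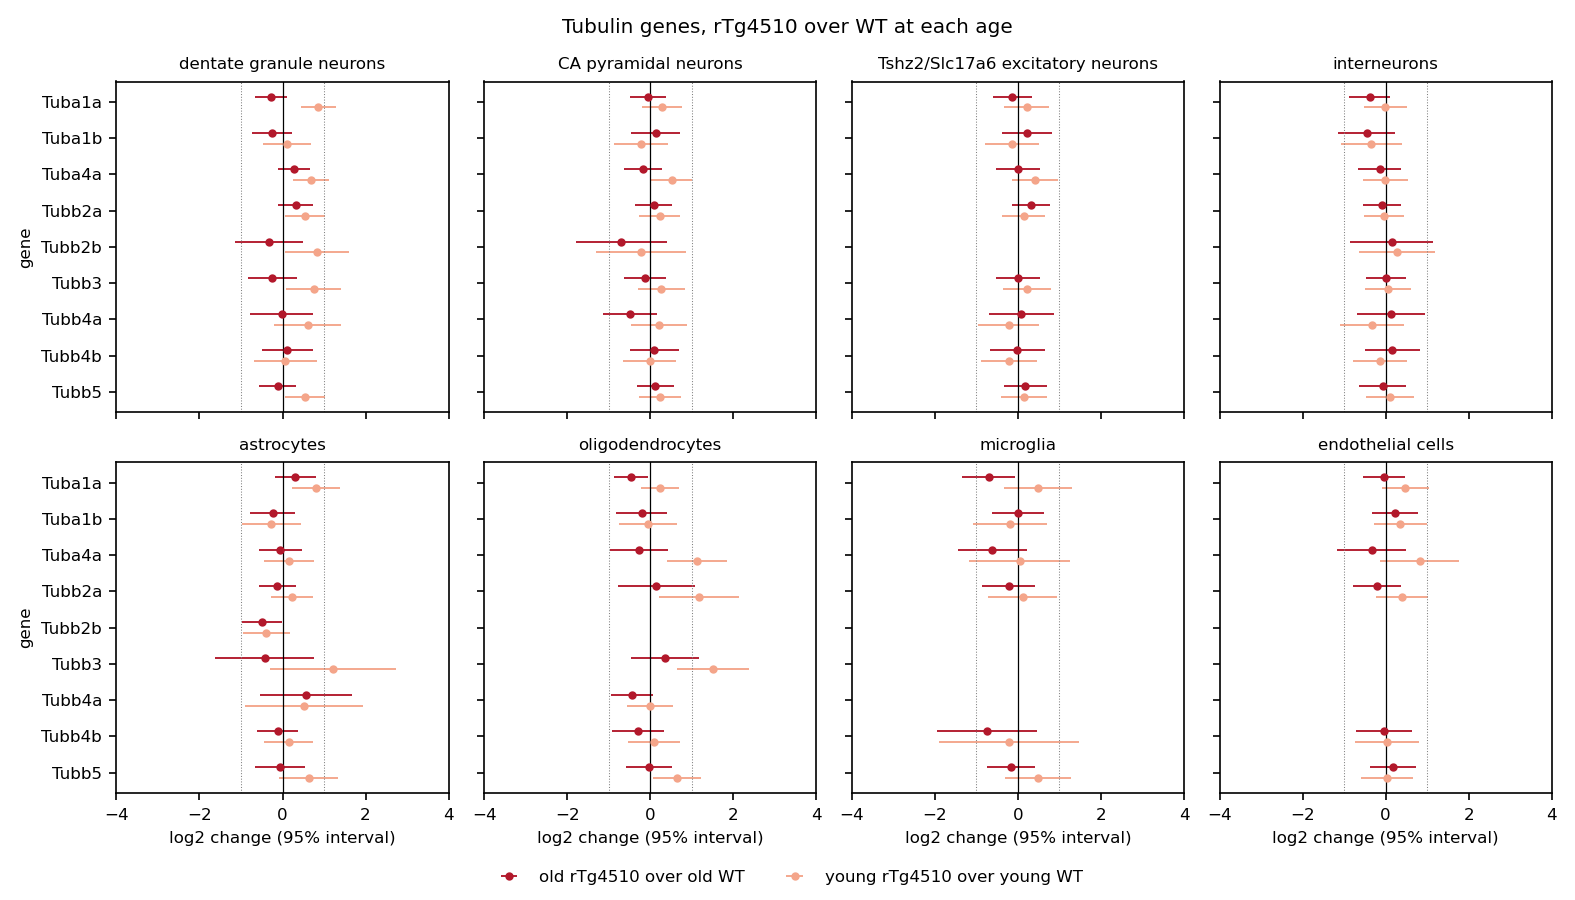
Log2 change of each tubulin gene in each cell class, with its 95% interval, for old rTg4510 against old WT animals and for young rTg4510 against young WT animals. The old changes lie around 0, and the young changes are positive in 68 of 90 pairs, with Tuba1a in dentate granule neurons the only call.

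The comparison of ages gave no tubulin call either. Old WT against young WT animals gave 0 of 85 pairs by edgeR and by DESeq2, 7 with an unadjusted p under 0.05, against 0.327% of all genes, with a median log2 change of 0.13. Old rTg4510 against young rTg4510 animals gave 0 of 89 pairs by edgeR and 1 by DESeq2, 11 with an unadjusted p under 0.05, against 0.245% of all genes, with a median of -0.20. Between old and young rTg4510 animals, Tuba1a in dentate granule neurons differed by -0.93 ± 0.22 (SE, edgeR adjusted p = 0.093). The difference between the genotype effects at the 2 ages gave 0 of 85 pairs by edgeR and by DESeq2, 9 with an unadjusted p under 0.05, against 0.00181% of all genes. Its median was -0.31, with 66 of 85 values negative.

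The genes that act on tubulin were described from 5 lists. Over all classes, 0 of 198 pairs of folding genes (the CCT chaperonin, prefoldin and the tubulin cofactors, 22 of 23 genes tested) were called between old rTg4510 and old WT animals and 0 of 213 between the young groups. At an unadjusted p under 0.05 there were 9 and 6 folding pairs, and DESeq2 also called 0 in both comparisons. The lists of other tubulins (3 of 10 genes tested), of modifying enzymes (14 of 23) and of autoregulation (Ttc5, which recognises nascent tubulin) also held 0 calls in both comparisons. Their pairs with an unadjusted p under 0.05 were 0 of 6, 3 of 78 and 0 of 9 in the old comparison and 1 of 6, 7 of 80 and 1 of 9 in the young comparison, and DESeq2 called 0. In each comparison edgeR called 1 pair from the stathmins, which bind tubulin dimers and loosen microtubules, and it was Stmn2 in dentate granule neurons both times. That was 1 of 41 stathmin pairs tested in the old comparison, against 0.634% of all genes over the classes and 1.27% of genes in dentate granule neurons. In the young comparison it was 1 of 40, against 0.118% and 0.554%. Of the stathmin pairs, 7 had an unadjusted edgeR p under 0.05 in each comparison. DESeq2 called 2 stathmin pairs in the old comparison and 1 in the young.

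Stmn2 stood at 362.5, 575, 328 and 574 CPM in the dentate granule neurons of the 4 old rTg4510 animals, against 163, 173, 256, 258 and 144 CPM in the 5 old WT animals. It stood at 844, 579 and 579 CPM in the 3 young rTg4510 animals, against 257, 209, 251 and 277 CPM in the 4 young WT animals. The genotypes did not overlap at either age. The log2 change was 1.30 ± 0.23 (SE, edgeR adjusted p = 0.00046) in old animals and 1.42 ± 0.24 (edgeR adjusted p = 0.00034) in young animals. Both calls held in all alternatives run, 16 for the old and 14 for the young comparison, with changes of 1.16 to 1.44 and 1.19 to 1.52. The 2 effects differed by -0.13 (old minus young, edgeR adjusted p = 0.99). As animals of 1 genotype share a transgene insertion, the effect of tau and that of the insertion or the transactivator cannot be told apart here. In the young comparison, age in weeks cannot be told apart from genotype either, since the young rTg4510 animals were younger within each range. In P301L animals this class had 173 and 83.2 CPM of Stmn2, and in rTta animals 398, 290.3 and 239 CPM. The rTta values overlapped both those of the old rTg4510 and those of the old WT animals, and of the P301L values 1 lay among those of the old WT animals and 1 below them.

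Old P301L against old rTta animals, which lie in the same part of the table, gave 0 of 63 tubulin pairs by edgeR and by DESeq2 and 9 with an unadjusted p under 0.05, against 0.594% of all genes over 9 classes. The P301L animals were 41 to 48 weeks old and the rTta animals 33, so age and genotype cannot be told apart in this comparison. From the lists, Stmn2 in dentate granule neurons was lower in P301L animals, by the values above, by -1.27 ± 0.34 on the log2 scale (SE, edgeR adjusted p = 0.044). It was 1 call among 29 stathmin pairs tested. P301L replicate 3 had too few cells of the class once the shared barcodes were left out. The call was lost in 6 of 12 alternatives, among them those without P301L replicate 2, rTta replicate 1 or rTta replicate 2, and with the shared cells kept the change was -0.71. In oligodendrocytes Ttll5, an enzyme that adds glutamates to tubulin tails such as those shown above, stood at 52.9, 61.2 and 37.7 CPM in P301L animals, against 173, 158 and 97.9 CPM in rTta animals. The groups did not overlap (-1.46 ± 0.36, edgeR adjusted p = 0.037), and the call was lost without any 1 of 5 animals, all but rTta replicate 3. It was 1 call among 44 pairs of modifying enzymes tested.

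Against old WT animals, old P301L animals had lower Tuba1a and Tuba4a in microglia. Tuba1a stood at 152, 174 and 191 CPM in the 3 P301L animals, against 367, 321, 815, 623 and 198 CPM in the 5 old WT animals. The groups did not overlap, although WT replicate 5 lay close to the P301L animals. Few counts of Tuba1a lay behind the values of P301L replicate 3 and WT replicates 2 and 5. The log2 change was -1.36 ± 0.38 (SE, edgeR adjusted p = 0.034). Tuba4a stood at 9.48, 29.9 and 31.8 CPM in P301L animals, against 127, 35.7, 42.9, 249 and 17.99 CPM in old WT animals. These groups overlapped, and WT replicates 1 and 4 were far above the rest. The microglia of these animals held 23318 to 166930 counts over all genes. Apart from WT replicates 1 and 4, the values thus rest on very few counts of Tuba4a. The log2 change was -2.29 ± 0.62 (edgeR adjusted p = 0.025). These were 2 lower calls among 63 pairs, against 0.453% of all genes over 9 classes (0.376% lower) and 3.05% of genes in microglia (2.54% lower).

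Neuron markers in microglia moved in the same direction. The 7 markers summed to 441 CPM (397 to 509) in P301L microglia and 2696 CPM (1494 to 4099) in old WT microglia, none was at 0 in either group, and 5 of 6 tested were called lower with a median log2 change of -2.34. In rTta and old rTg4510 microglia they summed to 1283 CPM (888 to 1607) and 1448 CPM (1004 to 2468). Their part in the tubulin values was not tested, and since P301L and WT animals lie in different parts of the table, the part and the genotype cannot be told apart. All P301L animals (41 to 48 weeks) were also older than all old WT animals (32 to 40 weeks), so age cannot be told apart from genotype either. The call for Tuba1a was lost in 7 of 14 alternatives (log2 changes of -1.53 to -1.14), among them those without WT replicate 3 or 4 or any 1 P301L animal. That for Tuba4a was lost in 6 of 13 (-3.92 to -1.66), among them those without WT replicate 1 or 4 or any 1 P301L animal. In the same microglia the stathmins Stmn2 (19.0, 41.9 and 31.8 CPM in P301L animals, against 133, 499.5, 257, 294 and 144 in old WT animals) and Stmn3 (37.9, 35.9 and 15.9, against 120.0, 357, 386, 283 and 54.0) were also lower. Their log2 changes were -2.80 ± 0.49 and -2.60 ± 0.61 (edgeR adjusted p = 0.0004 and 0.011), and neither pair of groups overlapped. Both are neuronal stathmins. With Stmn2 in oligodendrocytes, described below, 3 of 29 stathmin pairs were called lower, against 0.376% of all genes over the 9 classes and 2.54% in microglia. The call for Stmn3 was lost in 3 of 14 alternatives (-2.86 to -2.27), those without WT replicate 4 or P301L replicate 1 or 2.

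In oligodendrocytes Tubb4a stood at 2104, 1999 and 2184 CPM in P301L animals and 788, 1026, 1335, 967 and 1523 CPM in old WT animals. All P301L values lay above all WT values, and the log2 change of 0.92 ± 0.26 (SE, edgeR adjusted p = 0.084) did not pass. The oligodendrocytes of rTta animals, in the same part of the table as P301L, had 1278, 1669 and 1836 CPM. Between P301L and WT animals, the part of the table and age again cannot be told apart from genotype. Stmn2 was lower there in P301L animals (17.7, 7.20 and 22.6 CPM, against 90.1, 185, 169.5, 197 and 31.3 in old WT animals; -3.22 ± 0.72, edgeR adjusted p = 0.037), with neuron markers at 319.9 CPM (279 to 375) and 1967 CPM (1158 to 3152). The part of those markers was not tested, and the call was lost in 8 of 14 alternatives, among them those without WT replicate 2 or 4 or any 1 P301L animal.

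Old rTta against old WT animals gave 0 of 89 tubulin pairs by edgeR and by DESeq2 and 9 with an unadjusted p under 0.05, against 0.479% of all genes over 12 classes. From the lists, 2 of 78 pairs of modifying enzymes were called, both tubulin glutamylases that were higher in oligodendrocytes of rTta animals. This comparison again spans the parts of the table. Ttll5 stood at 173, 158 and 97.9 CPM in rTta animals, against 58.1, 66.2, 33.9, 44.6 and 73.0 CPM in old WT animals, a difference of 1.48 ± 0.32 on the log2 scale (SE, edgeR adjusted p = 0.0056) that lost its call without rTta replicate 1 or 2. Ttll7, an enzyme that modifies beta tubulin tails, stood at 1362, 1349 and 1111 CPM in rTta animals, against 788, 788, 987, 721 and 563.5 CPM in old WT animals. Its log2 change was 0.75 ± 0.19 (edgeR adjusted p = 0.023), and the call was lost in 7 of 14 alternatives, among them those without WT replicate 2, 4 or 5 or rTta replicate 1 or 2. Neither enzyme's groups overlapped. In microglia Stmn2 stood at 79.9, 88.8 and 81.4 CPM in rTta animals, against the old WT values above, again without overlap (-1.48 ± 0.40, edgeR adjusted p = 0.0499). It was 1 call among 41 stathmin pairs tested. That call was lost in 8 of 14 alternatives (log2 changes of -1.74 to -1.27), among them those without WT replicate 2, 3 or 4 or any 1 rTta animal. The 7 neuron markers summed to 1283 and 2696 CPM in these microglia, and their part was not tested.

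**Figure D4:**
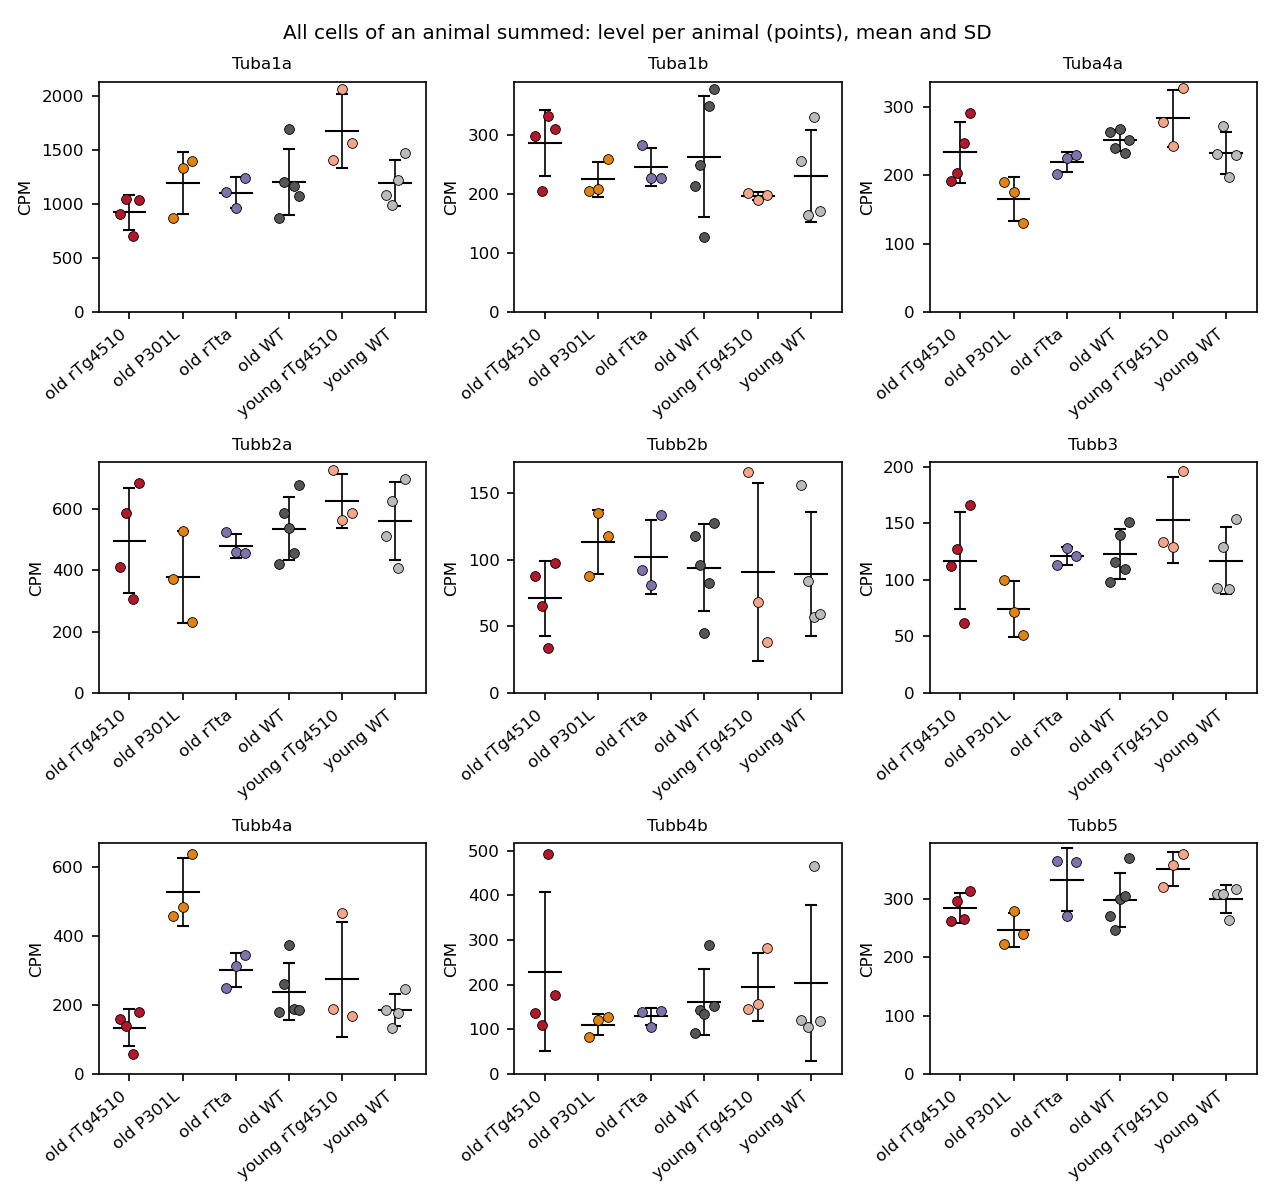
CPM of each tubulin gene over all cells of an animal (points), by group, with the group mean and SD (bars). No gene passed the test in any comparison, and Tubb4b shows single animals far above the rest, at 493.1 CPM in old rTg4510 replicate 3 and 465 CPM in young WT replicate 3.

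Over all cells of an animal, summed as in a bulk sample, edgeR called 0 of 72 pairs of tubulin gene and comparison, and 13 had an unadjusted p under 0.05. Of all genes, 0.201% were called in the old genotype comparison, 0.129% between old and young rTg4510 animals, 0.403% for P301L against rTta and 0.201% for rTta against WT, and 0% in the others. In such sums, fewer cells of a type and less RNA per cell cannot be told apart. Tuba1a ranged from 702 to 2065 CPM over the 22 animals and stood at 1679 ± 342 (SD, n = 3) in young rTg4510 animals, against 1192 ± 212 (n = 4) in young WT animals. The 8 oligodendrocyte markers over all cells summed to 31894 CPM (15924 to 51571) in young rTg4510 animals and 19743 CPM (10721 to 30597) in young WT animals. Oligodendrocytes were 31.0% and 23.6% of the cells of young rTg4510 replicates 2 and 3 and 20.4% and 21.2% of those of young WT replicates 3 and 4, which share a range of animal numbers, but 6.03% in young rTg4510 replicate 1 and 4.55% and 6.52% in young WT replicates 1 and 2, the other range. Tubb4a stood at 160.5, 139, 57.2 and 178 CPM in old rTg4510 animals, against 179, 262, 372, 189 and 185 CPM in old WT animals. The highest old rTg4510 value lay just below the lowest old WT value, and the log2 change was -0.81 ± 0.33 (SE, edgeR adjusted p = 0.49). Tubb4a also stood at 456, 482 and 638 CPM in P301L animals, against 248, 312 and 344 CPM in rTta animals. The same markers summed to 10523 CPM (4861 to 13850) in old rTg4510 animals and 17984 CPM (11495 to 25913) in old WT animals, and to 23464 CPM (18725 to 29661) in P301L animals and 14699 CPM (10710 to 16713) in rTta animals. None of them was at 0, they moved in the direction of Tubb4a and Tuba1a each time, and their part was not tested. The remaining genes ranged over the 22 animals from 127 to 378 CPM (Tuba1b), 129.5 to 327 (Tuba4a), 232 to 726 (Tubb2a), 34.0 to 166 (Tubb2b), 51.0 to 196 (Tubb3) and 223 to 376 (Tubb5), each shown animal by animal in the plot.

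The 2 animals with the highest Tubb4b over all cells were also those with the most choroid plexus cells. In young WT replicate 3 it stood at 465 CPM, against 122, 105.5 and 119.6 in the other young WT animals, and its 181 choroid plexus cells (11.3% of its cells) held 74.2% of its Tubb4b counts. Old rTg4510 replicate 3, at 493.1 CPM, had 544 choroid plexus cells that held 89.2% of its Tubb4b counts. It stood against 136.5, 110.4 and 177.5 CPM in the other old rTg4510 animals. All 5 animals with 20 or more choroid plexus cells belong to the higher range of animal numbers of their age, so the range and the presence of these cells cannot be told apart.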

How the data were processed

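The deposited table holds counts as whole numbers for each gene and cell barcode, and a second file lists the barcode sequences. Per the submitters' processing notes, reads were demultiplexed with bcl2fastq 2.18.0.12 and aligned with STAR 2.2 to mm10. The counting tool, its annotation, its filters and whether distinct molecular identifiers were counted are not given in the sources used here. Per the labels' protocols, the 3′ ends of cDNA were sequenced. Cell types of the authors were not used here, and cells were clustered instead: barcodes with at least 300 counts (27198, of which 353 with shared barcodes were left out), 12614 genes counted in all animals, counts scaled to 10000 and logged, 2000 variable genes without the 9 tubulin genes, 40 principal components, a graph of 15 neighbours per cell and Leiden clusters at resolution 1 (scanpy 1.11.5, leidenalg 0.10.2, scikit-learn 1.9.0, Python 3.11.15). That gave 25 clusters, named where at least 3 markers stood 2-fold above the other clusters after adding 20 CPM; the cluster with Gpr17 and Enpp6 carried markers of precursors and of oligodendrocytes, and 3340 cells stayed unnamed. These names are markers carried, not types established otherwise.

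Counts were summed per animal and class (at least 20 cells) and compared with edgeR 4.0.16 (TMM, filterByExpr, robust quasi-likelihood test, R 4.3.3), 6 groups in 1 fit per class, with Benjamini-Hochberg adjustment over all genes of a class at 0.05. DESeq2 1.42.0 was an alternative. Log2 changes carry their standard error. Share and order tests permuted or flipped animals exactly, or 100000 times for 10 or more animals. Both were tested on simulated data. The members and lists were chosen with earlier results of these data known. All 9 tubulin genes are named, with the 3 most alike genes each, and list genes past the test. Replicates are animals. The labels give no batch, but the animal numbers of WT and rTg4510 mice fall in ranges that hold both genotypes of an age.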

Additional observations from a re-analysis of the deposited data

Results flagged for a closer look

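Of 52 groups of 4 or 5 animals in which the tubulin genes were looked at for a single animal far from the others of its group, 6 held such an animal, where chance flags about 1 in 20 groups. In dentate granule neurons, young WT replicate 2 had 559 CPM of Tuba1a, against 717 to 735 in the other 3 young WT animals. In Tshz2/Slc17a6 neurons, old rTg4510 replicate 1 had 552 CPM of Tuba1b, against 325 to 338 in the other 3 old rTg4510 animals. In microglia, old rTg4510 replicate 3 had 135 CPM of Tuba4a, against 54.4 to 58.3 in the others of its group. In interneurons, old WT replicate 5 had 1248 CPM of Tubb2a, against 987 to 1003 in the other 3 old WT animals with enough cells. In oligodendrocytes, young WT replicate 1 had 1319 CPM of Tubb4a, against 780.2 to 860.1 in the others of its group. Over all cells, young WT replicate 3 had 465 CPM of Tubb4b, against 105.5 to 122 in the others, beside the choroid plexus cells described above.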

How the results depend on the processing

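Old rTg4510 against old WT animals gave 0 tubulin calls in all 16 alternatives and the difference between the ages 0 in all 23. The alternatives for the isotype shares say nothing of stability, since the group sizes all but fix their count at 0. No called change reversed its sign. The young comparison gave 0 calls with no filter on low counts, 0 when only the groups compared were fitted, and 0 to 1 when each animal was left out in turn. P301L against WT, with 2 calls, gave 1 with DESeq2, 1 with at least 500 counts per barcode, 4 when only the groups compared were fitted, and 0 to 3 with animals left out. P301L against rTta gave 2 with no filter on low counts, 1 when only the groups compared were fitted, and 0 to 2 with animals left out. rTta against WT gave 1 with no filter on low counts. Old against young rTg4510 animals gave 1 with DESeq2, 1 when only the groups compared were fitted and 1 with the tubulin genes added to the clustering, an alternative chosen after seeing the data, as was keeping the cells with shared barcodes. Old against young WT animals gave 0 to 1 with animals left out, the 1 without old WT replicate 3. The causes were not tested.

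The order of classes gave 10 to 20 neighbouring pairs past the adjustment, against 14. The top class among those with enough animals changed for Tuba1b, Tubb2a and Tubb2b with means over cells, and for Tuba1a, Tuba4a, Tubb2a, Tubb4b and Tubb5 with the tubulin genes added to the clustering. Allowing the tubulin genes among the variable genes changed nothing, since 0 of the 9 were variable. Classes and animals with few cells limit the low genes. No paired analysis was possible because the labels give no replicate numbers that groups share. The range of animal numbers as a term gave 1 call in the young comparison and 0 in the old, in both age comparisons and in the difference between the ages.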
